A study of Mus musculus with 8 samples.

Results

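The genes examined were the 10 NuRD (nucleosome remodeling and deacetylase) remodeller and subunit genes *Chd3*, *Chd4*, *Chd5*, *Mta1*, *Mta2*, *Mta3*, *Hdac1*, *Hdac2*, *Gatad2a* and *Gatad2b*, out of 21951 protein-coding genes of GENCODE release M21 (mm10). A differential ATAC-seq peak was given to a gene when the gene's transcription start site (TSS) was the nearest protein-coding TSS, or when the peak lay within 10 kb of the gene body. By this rule 14 of the 15736 listed peaks belonged to these genes. ATAC-seq maps open chromatin through the insertion of adapters by the Tn5 transposase. It was performed on whole mouse hearts at E10.5, with 4 WT samples and 4 *Chd4-CMko* samples, each a pool of several hearts (3 per pool by the series' design text and the study's methods, 4 by the sample labels), from which 40000 viable cells were taken. For E10.5 embryos used in immunohistochemistry, the study's methods give a cross of *Chd4* fl/fl females with males carrying *Tnnt2* Cre/+ and *Chd4* fl/+. In it Cre is driven from *Tnnt2* in cardiomyocytes, so that the other cells of the heart keep *Chd4*. No cross is named for the ATAC-seq hearts. The mutants and their control littermates are said to come from a line described in earlier work. The alleles carried by the WT embryos are not given in the sources used here.

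The deposited lists hold 12991 peaks with higher signal in *Chd4-CMko* hearts (gained) and 2745 with higher signal in WT hearts (lost). They carry 1 score per peak and no value per sample. No replicate error, depth per sample or test between genotypes can therefore be given, and each count below is read beside the same count over all protein-coding genes. The score is the authors' value, read here as the scaled number of tags in the genotype where the peak was called. On that reading, which the sources do not state, it describes peak height and not the size of the difference. Its scale may differ between the lists, so scores are compared within a list only. In whole hearts, a change in the number of cells of one type and a change in accessibility per cell cannot be told apart.

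NuRD joins nucleosome remodelling by a CHD ATPase to histone deacetylation by HDAC1 and HDAC2. CHD3, CHD4 and CHD5 are paralogues that occupy the remodeller position one at a time. CHD4 is the widely used one, whereas CHD5 is known mainly from neurons and testis. MTA1, MTA2 and MTA3 form the scaffold that holds the deacetylases, and GATAD2A and GATAD2B link the remodeller to the rest of the complex.

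Gained peaks were listed at all 3 remodeller genes, including the deleted gene *Chd4*, at both deacetylase genes, at 1 of 3 MTA genes and at 1 of 2 GATAD2 genes, and differences between these roles were not tested. A gained peak was listed at 7 of the 10 genes (*Chd3*, *Chd4*, *Chd5*, *Mta3*, *Hdac1*, *Hdac2* and *Gatad2a*), against 37.4% of all protein-coding genes. Among the genes whose body plus window was as long as that of these 10 genes, from the shortest to the longest, the share was 40.8%. A lost peak was listed at 1 of the 10 genes, *Mta3*, against 10.8% of all protein-coding genes. *Mta1*, *Mta2* and *Gatad2b* had no peak in either list. *Mta3* was the gene of the 10 with peaks in both lists, which held for 6.36% of all protein-coding genes. In total, 13 gained peaks and 1 lost peak were counted.

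**Figure D1:**
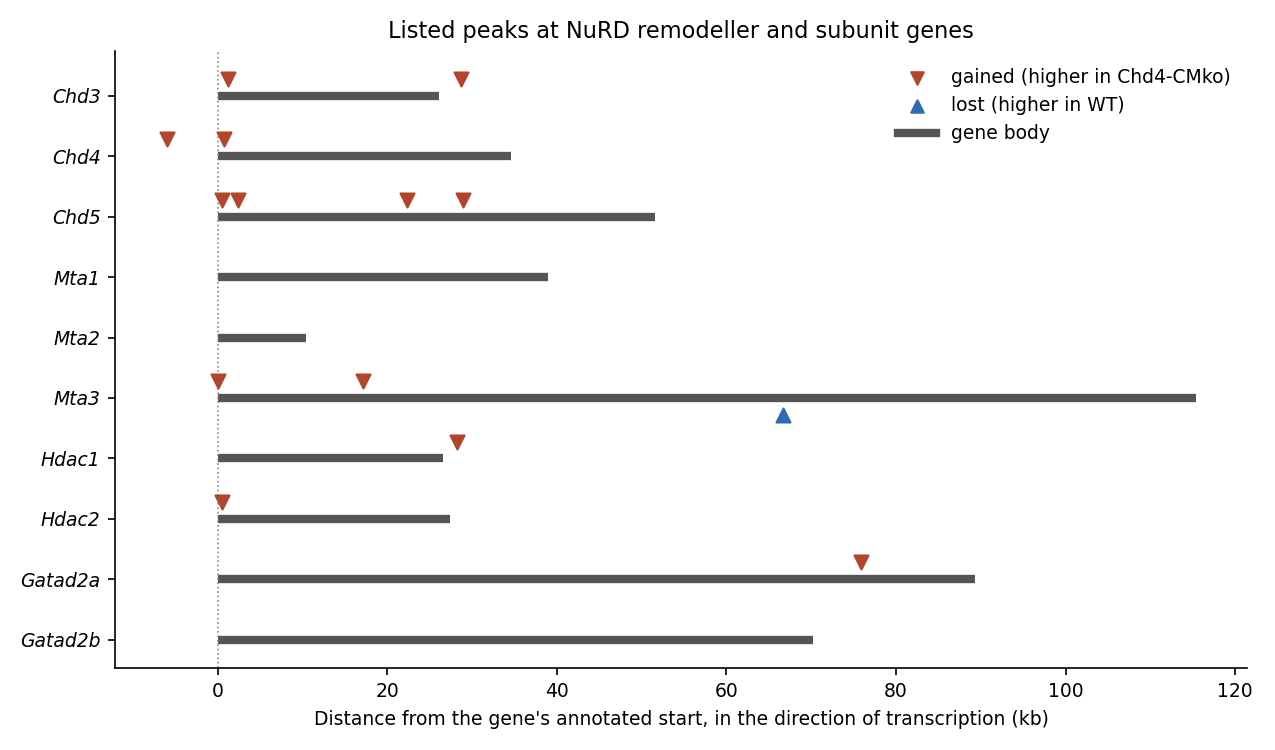
Position of every listed peak at the 10 genes, as the distance of the peak centre from the annotated start of the gene in kb, with grey bars for gene bodies, red marks for gained and a blue mark for the lost peak. Gained peaks stand near the start of *Chd3*, *Chd4*, *Chd5*, *Mta3* and *Hdac2*, and *Mta1*, *Mta2* and *Gatad2b* carry no mark.

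By role, the 3 remodeller genes held 8 gained peaks, which was 4.64 per 100 kb of gene body and window. The 2 deacetylase genes held 2 gained peaks (2.13 per 100 kb), the 3 MTA genes held 2 (0.89 per 100 kb) and the 2 GATAD2 genes held 1 (0.501 per 100 kb). Over all 10 genes the value was 1.88 per 100 kb, and over all protein-coding genes it was 1.05. Apart from the remodellers, each of these values rests on 1 or 2 peaks. By nearest TSS alone the *Hdac1* peak and 1 *Chd3* peak dropped out, and the values per 100 kb, which were added after seeing the data, were 4.06 for the remodellers, 1.06 for the deacetylases and 0.859 for all protein-coding genes. The remodeller genes lay above the value for all protein-coding genes by either count. At least 2 gained peaks were listed at 4 genes (*Chd3*, *Chd4*, *Chd5* and *Mta3*), and 16.3% of all protein-coding genes had as many.

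Several of these peaks are shown by sequence, namely the highest-scoring one and those near gene starts at the remodeller genes, *Hdac2* and *Mta3*, as far as they lie outside annotated UTRs. Of the 13 gained peaks, 6 had their centre within 3 kb of an annotated gene start. All are the plus strand of GRCm38, written 5′ to 3′ in lower case. Capitals mark exact matches, on either strand, to one of 9 strings that were searched in every peak. The string for NFY was CCAAT and that for the GC box, bound by SP and KLF factors, was GGGCGG. Binding sites of GATA factors were searched as AGATAA, those of TEAD as ACATTCC and those of ETS as CCGGAAG. The E-box was searched as CACGTG and separately as CAGCTG, and AP-1 as TGACTCA. The last string was the MEF2 motif. The first is the peak upstream of *Chd4* at chr6:125089870-125090020, the highest-scoring peak of the set. Another lies in intron 1 of *Chd3* at chr11:69368086-69368236, the next pair in intron 1 of *Chd5* at chr4:152339108-152339258 and chr4:152341025-152341175, and another in intron 1 of *Hdac2* at chr10:36974996-36975146. The last is the part of the *Mta3* start site peak that precedes the first transcribed base, at chr17:83706085-83706162.
Chd4 upstream: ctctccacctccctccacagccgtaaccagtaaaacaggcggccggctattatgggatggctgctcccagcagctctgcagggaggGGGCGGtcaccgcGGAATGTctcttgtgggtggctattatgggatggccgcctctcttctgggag
Chd3 intron: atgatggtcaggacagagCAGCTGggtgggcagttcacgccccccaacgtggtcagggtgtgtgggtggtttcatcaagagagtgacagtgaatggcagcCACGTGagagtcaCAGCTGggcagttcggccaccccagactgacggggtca
Chd5 intron, first: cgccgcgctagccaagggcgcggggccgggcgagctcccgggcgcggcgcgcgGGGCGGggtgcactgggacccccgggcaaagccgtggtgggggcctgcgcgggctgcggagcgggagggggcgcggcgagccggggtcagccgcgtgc
Chd5 intron, second: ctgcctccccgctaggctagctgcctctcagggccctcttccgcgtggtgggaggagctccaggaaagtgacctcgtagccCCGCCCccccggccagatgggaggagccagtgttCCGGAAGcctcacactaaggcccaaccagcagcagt
Hdac2 intron: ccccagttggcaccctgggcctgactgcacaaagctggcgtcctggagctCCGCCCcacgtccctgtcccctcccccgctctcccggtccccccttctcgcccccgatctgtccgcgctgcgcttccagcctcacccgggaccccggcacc
Mta3 upstream: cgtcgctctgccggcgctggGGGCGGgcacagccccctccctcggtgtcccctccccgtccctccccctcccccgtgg

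*Chd4* (ENSMUSG00000063870.12, chr6:125095981-125130591, plus strand), which encodes the remodeller removed in the mutant cardiomyocytes, had 2 gained and 0 lost peaks. The upstream peak shown above is intergenic, 5961 bp before the nearest *Chd4* TSS, which is also the nearest protein-coding TSS. Its score of 405.5 was reached by 86 of the 12991 gained peaks. Among the 9996 gained peaks farther than 3 kb from any protein-coding TSS, 17 scored as high. This was the highest score of the 13 gained peaks. Its sequence has a GC content of 61.6%, 1 GC box and 1 TEAD string, and a stretch of 17 bases (ggctattatgggatggc) occurs at 2 places, from positions 45 and 118 of the peak. A repeat of that length or longer within the peak was found in 7% of gained peaks.

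The other *Chd4* peak lies at chr6:125096663-125096813 and scored 219.5, above 93.3% of gained peaks. Its centre is 757 bp downstream of the annotated gene start and its edge 94 bp from the TSS of a shorter coding transcript of *Chd4*. It falls inside the first exon of that transcript, over its 5′ UTR, and inside intron 1 of the main *Chd4* transcript. The peak had a GC content of 70.9% and 8 CpG sites. None of the strings was found in it. Along the remaining gene body neither list held a peak, and the closest lost peak was 887904 bp away. The sources used here do not say which exons are floxed, and a deleted stretch that holds no peak in WT hearts would leave no entry in either list.

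*Chd5* (ENSMUSG00000005045.16, chr4:152338651-152390194, plus strand), the paralogue known from neurons, had 4 gained peaks, the most of the 10 genes. That number or more was found at 4.12% of all protein-coding genes. The peak nearest to the gene start (centre 532 bp downstream) scored 80.5, above 62.6% of gained peaks. It was also among the most GC-rich of the set, at 84.8% with 26 CpG sites. The second peak, 2449 bp downstream, scored 205.5. The third, at chr4:152360946-152361096, overlaps exon 9 of the main *Chd5* transcript and scored 220, above 97.5% of gained peaks that lie farther than 3 kb from a TSS. The last, at chr4:152367522-152367672 in intron 14, scored 69. Each of the 4 peaks had *Chd5* as its nearest gene by TSS, and the smallest distance between them was 1767 bp.

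The last of the *Chd5* peaks is a tandem array in which the GC box recurs, as its sequence shows.
Chd5 intron 14: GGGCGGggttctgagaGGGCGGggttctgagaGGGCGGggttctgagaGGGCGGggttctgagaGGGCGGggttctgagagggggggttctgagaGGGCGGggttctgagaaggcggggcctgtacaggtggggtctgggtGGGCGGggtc
It held 7 GC boxes, and a stretch of 35 bases starting at position 1 occurs again from position 49.

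*Chd3* (ENSMUSG00000018474.17, chr11:69343273-69369406, minus strand), the other paralogue, had 2 gained peaks. The intronic peak shown above scored 237, above 94.4% of gained peaks, and lies 1155 bp from the nearest *Chd3* TSS. The other one, at chr11:69340662-69340812, scored 232 and lies 2461 bp beyond the 3′ end of *Chd3*. It covers the TSS of the neighbouring gene *Rnf227*, and its nearest *Chd3* TSS is 5207 bp away. It belongs to *Chd3* through the 10 kb window alone. Both peaks contain the E-box CACGTG, which was found in 4.79% of gained peaks. The intronic one has 2 copies of the E-box CAGCTG as well (13.2% of gained peaks hold it).

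Set side by side, the 3 remodeller genes each had a gained peak in intron 1 of the main transcript. By peak centre these lay 1245 bp (*Chd3*), 757 bp (*Chd4*) and 532 and 2449 bp (*Chd5*) downstream of the gene start. Their scores were 237 for *Chd3*, 219.5 for *Chd4* and 80.5 and 205.5 for *Chd5*. The edge of the *Chd4* peak was 94 bp from an own TSS, against 1155 bp for *Chd3* and 221 and 420 bp for *Chd5*. A high-scoring peak upstream of the gene was listed for *Chd4* and not for *Chd3* or *Chd5*, whereas peaks inside the gene beyond intron 1 were listed for *Chd5* and not for the others. With 1 list per genotype, these differences between genes have no replicate check.

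Of the deacetylase genes, *Hdac2* (ENSMUSG00000019777.16, chr10:36974544-37001889, plus strand) had 1 gained peak, the intron 1 peak shown above. It scored 234, above 94.2% of gained peaks, and its centre is 527 bp downstream of the gene start. The closest other peak of either list, a lost one, was 275753 bp from it. *Hdac1* (ENSMUSG00000028800.15, chr4:129516104-129542713, minus strand) had a gained peak at chr4:129514453-129514603 with a score of 248.5. That peak lies 1501 bp beyond the 3′ end of *Hdac1*, inside the neighbouring gene *Marcksl1*, whose TSS is nearest at 872 bp. The body of *Hdac1* itself, with the start of its coding transcript at the other end, held no listed peak. For *Hdac1*, as for the second *Chd3* peak, the call rests on the window, and by nearest TSS alone *Hdac1* had 0 gained peaks.

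Of the MTA scaffold genes, *Mta3* (ENSMUSG00000055817.18, chr17:83706163-83821516, plus strand) was the longest of the 10 genes at 115 kb. Its start site peak, at chr17:83706085-83706235, covers the TSS, has a GC content of 84.8% and scored 134.5, above 81.4% of gained peaks. A gained peak in intron 3, at chr17:83723216-83723366, scored 50 and was the lowest-scoring gained peak of the set. Annotated repeats covered 50.3% of it and 53.6% of the start site peak. In intron 8, at chr17:83772765-83772915, lay the single lost peak of the 10 genes, with a score of 55.7, above 80.4% of lost peaks. It had a GC content of 55.6%, 1 CpG site and no match to the 9 strings. A CTCF core string, searched on both strands after the sequences were seen, with 1 mismatch allowed, was in this peak (17.8% of lost peaks hold it) and in 2 of the 13 gained peaks (16.5% of gained peaks hold it). Its sequence is shown because it is the one site of the set with higher signal in WT hearts.
Mta3 intron 8, lost: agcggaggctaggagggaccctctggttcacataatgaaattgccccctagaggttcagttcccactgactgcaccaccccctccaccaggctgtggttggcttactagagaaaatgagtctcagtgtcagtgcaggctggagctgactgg

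*Mta1* (ENSMUSG00000021144.14, chr12:113098278-113137206) and *Mta2* (ENSMUSG00000071646.9, chr19:8941875-8952303) had no listed peak. The closest gained peaks lay 48592 bp from the body of *Mta1* and 37892 bp from that of *Mta2*, and the closest lost peaks 1373053 bp and 780736 bp. Absence from the lists shows that no difference past the authors' limit was called. It does not show that chromatin at these genes was closed or equal in both genotypes.

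Of the linker genes, *Gatad2a* (ENSMUSG00000036180.15, chr8:69907076-69996384, minus strand) had 1 gained peak, at chr8:69920399-69920549 in intron 3, 15977 bp from its nearest TSS. It scored 143.5, above 91% of gained peaks farther than 3 kb from a TSS. With a GC content of 51% and 4 CpG sites it was the least GC-rich gained peak of the set, and none of the strings was found in it.
Gatad2a intron 3: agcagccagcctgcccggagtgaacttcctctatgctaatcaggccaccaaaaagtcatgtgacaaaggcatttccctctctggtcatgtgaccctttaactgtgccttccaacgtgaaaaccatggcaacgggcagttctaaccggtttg
The stretch gtcatgtgac occurs in it at 2 places. *Gatad2b* (ENSMUSG00000042390.9, chr3:90293178-90363407) had no listed peak, and the closest gained peak was 16040 bp from its body.

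A gained peak within 3 kb of one of the gene's own TSSs was listed for 6 of the 10 genes (*Chd3*, *Chd4*, *Chd5*, *Mta3*, *Hdac1* and *Hdac2*), against 12.4% of all protein-coding genes. For *Hdac1* this TSS, at 2915 bp, belongs to a transcript annotated as a retained intron, without a coding sequence, near the 3′ end of the gene. Counting only peaks whose nearest protein-coding TSS was the gene's own gave 5 genes, against 11.7% of protein-coding genes. With the TSSs of protein-coding transcripts of the GENCODE basic set alone, the count was 5, against 9.18%. The 10 genes have 4 to 9 annotated TSSs each, and these shares were not matched for the number of TSSs. Of the 6 gained peaks whose centre lay within 3 kb of an annotated gene start, 5 lay downstream of it, all in intron 1. The centre of the remaining one, at *Mta3*, was 3 bp before the start. Over all protein-coding genes 1933 such pairs of peak and gene were counted, and 52.7% of them had the peak downstream.

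The gained peaks of these genes were high within their list. Their median score was 219.5 (range 50 to 405.5), against 62.5 over all gained peaks. Scores were higher near TSSs in general, so the classes were also taken apart. Within 3 kb of a protein-coding TSS the median was 225.8 for the 8 peaks of these genes and 122.5 for all 2995 gained peaks of that class. Farther away it was 143.5 for 5 peaks and 54.5 for all 9996. The 8 peaks near a TSS include the *Chd3* peak over the *Rnf227* TSS (232) and the *Hdac1* peak nearest to the *Marcksl1* TSS (248.5). In all, 12 of the 13 peaks scored above the median of the gained list. No test is given, since peaks of 1 gene share their source.

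**Figure D2:**
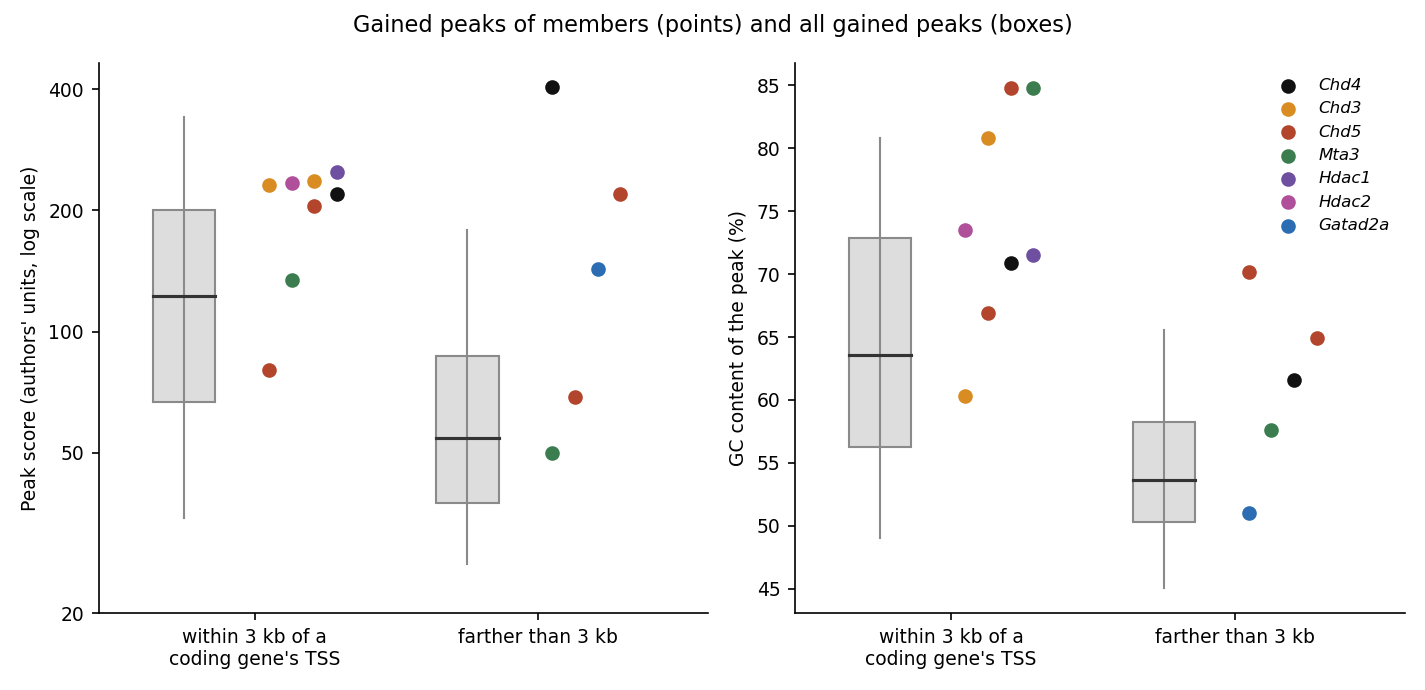
Peak score (left, log scale) and GC content (right, in percent) of the 13 gained peaks of the 10 genes, 1 point per peak, beside all gained peaks of the same class (box: quartiles with the median as a line, whiskers: 5th to 95th percentile). The *Chd4* upstream peak (405.5) and the *Chd5* exon 9 peak (220) stand above the score whisker of the distal class. Most other points lie in the upper part of their class.

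The peaks were also rich in G and C. The median GC content was 70.2% (range 51 to 84.8%), against 55% for all gained peaks, and the median number of CpG sites was 8 (range 4 to 30) against 2. Near TSSs the medians were 72.5% and 63.6%, and farther away 61.6% and 53.6%. The highest CpG count, 30, was at the *Chd3* peak over the *Rnf227* TSS, with a GC content of 80.8%. Annotated repeats were absent from 8 of the 13 peaks, against 46.9% of all gained peaks. The GC box GGGCGG was present in 7 of the 13 peaks (22.5% of all gained peaks, 35.9% of 32544 distinct RefSeq promoter windows, which at 300 bases are longer than the peaks). Its frequency follows GC content. Among gained peaks with a GC content of 70% or more it was in 77.5%, and in 4 of the 7 peaks of these genes. With a limit of 60% the values were 53.4% and 7 of 11.

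The CCAAT string bound by NFY was in 0 of the 13 peaks, against 29.3% of all gained peaks and 37.4% of promoter windows. The 13 peaks were richer in G and C than the gained list, and no share of CCAAT at a like GC content was computed. A lack of NFY sites can therefore not be read from this count. The GATA, AP-1 and MEF2 strings were also in 0 of the 13, and at shares of 11.1%, 4.19% and 3.26% over all gained peaks nothing can be read from these counts. The TEAD string was found at *Chd4* alone (3.76% of gained peaks) and the ETS string in the second *Chd5* peak alone (2.12%). Of the E-boxes, CACGTG was in 2 of the 13 peaks and CAGCTG in 1, all at *Chd3*. Among the 7 of the 10 genes with a RefSeq promoter window (GRCm38.p6), CCAAT was in a window of *Chd4*, *Gatad2a* and *Gatad2b*. A match describes the letters in the window and not the binding of a factor.

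To place these genes among related ones, 5 further lists were examined by the same rule, again beside 37.4% for gained and 10.8% for lost peaks. Of 6 other NuRD subunits, 2 had a gained peak. At *Rbbp7*, which encodes a histone-binding chaperone, a peak 160 bp from a TSS scored 180. *Mbd2*, which encodes the subunit that reads methylated CpG, had 1 gained peak with a score of 38.5 and 3 lost peaks. *Mbd3*, *Rbbp4*, *Cdk2ap1* and *Cdk2ap2* had neither. Of 7 other CHD remodellers, 6 had a gained peak and 3 also had a lost peak (*Chd1l*, *Chd6* and *Chd7*). *Chd7*, a remodeller mutated in CHARGE syndrome, had 5 gained and 4 lost peaks, and its highest gained score was 130.5. At *Chd6*, a gained peak 379 bp from a TSS scored 208. *Chd8* had none.

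Of 9 other remodeller ATPases, 2 had a gained peak (*Smarca1* and *Smarca2*) and 0 had a lost peak. *Smarca4*, the main ATPase of the BAF complex, was in neither list. Of 9 other zinc-dependent deacetylases, 5 had a gained peak (*Hdac4*, *Hdac5*, *Hdac7*, *Hdac9* and *Hdac10*) and 2 had a lost peak (*Hdac4* and *Hdac9*). These include the 4 class IIa enzymes that repress MEF2 targets. The class I genes *Hdac3* and *Hdac8* had none. At *Hdac10* the peak, with a score of 110.5, lay nearest to the TSS of *Mapk12*. A gained peak of *Hdac9*, 70 bp from a TSS, scored 177, and the gene had 3 lost peaks, of which the highest (159.1) lay nearest to the TSS of *Twist1*.

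Of 13 genes for CHD4 partners and recruiters, gained peaks were listed at 11 and lost peaks at 4. *Smyd1*, which encodes the muscle methyltransferase found with CHD4, had 3 gained peaks, none within 3 kb of a TSS, with scores of 29.5, 49.5 and 76.5. *Zfpm1*, which encodes the GATA cofactor FOG1, had 10 gained peaks with scores from 49 to 295. *Nab2*, which encodes a corepressor that binds CHD4, had a peak 235 bp from a TSS with a score of 266. *Tbx5*, *Gata4* and *Nkx2-5*, which encode cardiac transcription factors, had 6, 1 and 1 gained peaks, none within 3 kb of a TSS. *Zfpm2*, which encodes FOG2, had lost peaks only (5). *Kdm1a* had neither. Gained peaks within 3 kb of an own TSS, beside 12.4% of all protein-coding genes, were listed at 1 of 6 other NuRD subunits, 3 of 7 other CHD remodellers, 2 of 9 other remodeller ATPases, 1 of 9 other deacetylases and 3 of 13 partners. Among the marker lists described next, the cardiomyocyte genes had 5 of 11, the endothelial genes 1 of 6, the epicardial genes 2 of 5, the erythroid genes 0 of 7 and the neuronal genes 2 of 6. The genes of these lists differ widely in length, and a longer gene can collect more peaks.

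**Figure D3:**
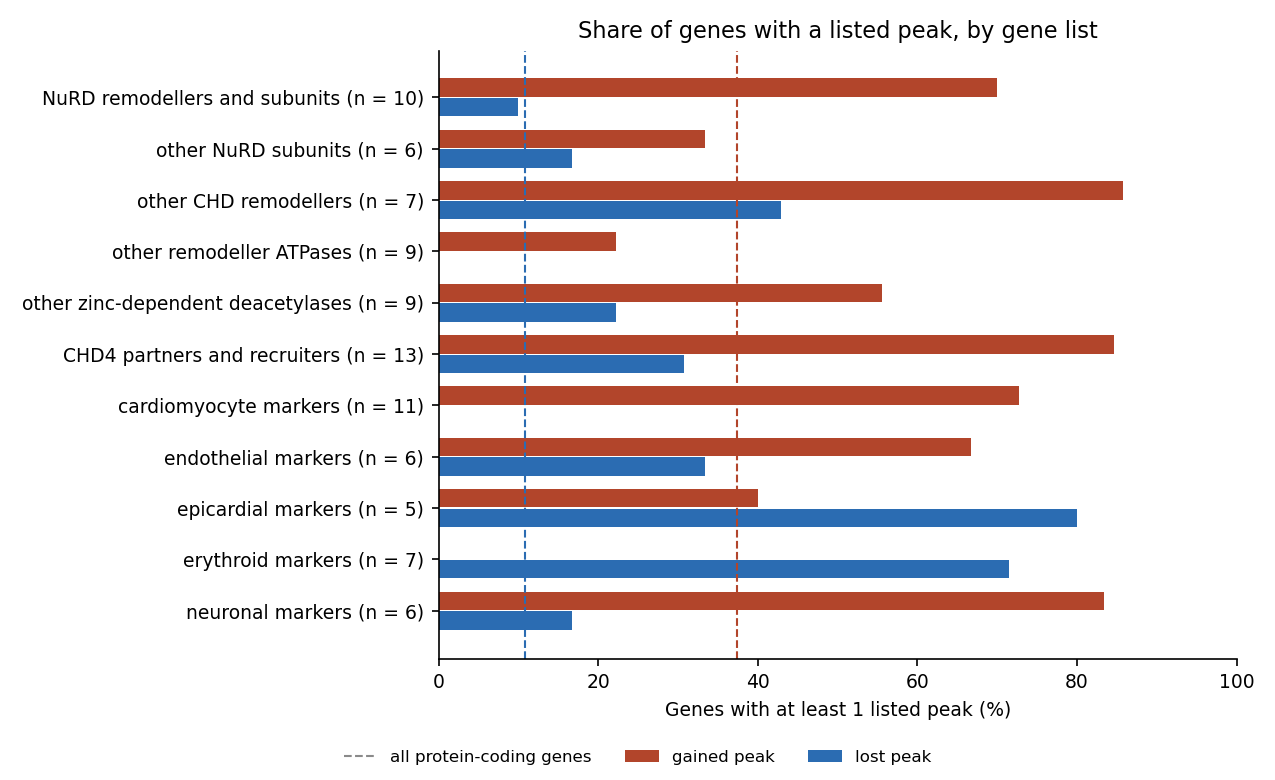
Share of genes with at least 1 gained (red) or lost (blue) peak, in percent, for the 10 NuRD genes and 10 other lists, with n the number of genes and dashed lines for all protein-coding genes (37.4% gained, 10.8% lost). The 10 NuRD genes lie above the gained line and beside the lost line, and the erythroid list shows lost peaks only.

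Since the libraries came from whole hearts, markers of the cell types in them were examined by the same rule. A gained peak was listed at 8 of 11 cardiomyocyte genes, 4 of 6 endothelial genes, 2 of 5 epicardial genes, 0 of 7 erythroid genes and 5 of 6 neuronal genes. A lost peak was listed at 0, 2, 4, 5 and 1 of these genes. Gained peaks at the neuronal genes scored from 24 to 134, and those at *Chd5* scored 69, 80.5, 205.5 and 220. These scores were not matched for distance to a TSS, and scores were higher near TSSs in general. Of the 5 erythroid genes, *Hba-a1* and *Hba-x* share the same 2 lost peaks, both nearest to the TSS of *Hba-x*. The part of cell composition in the peaks at NuRD genes was not tested.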

How the data were processed

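ATAC-seq was performed on E10.5 hearts (4 WT and 4 *Chd4-CMko* samples). Per the labels, the authors used BWA-MEM for alignment (mm10), HOMER (4.10.3) for peak calling and ChIPseeker (1.20.0) for annotation, and the study's methods set a fold-change limit for differential peaks. Read filters, duplicates, a Tn5 shift and the joining of replicates are not given in the sources used here. The deposited value is a peak score of unstated scale in 2 lists, 1 per genotype, with no column per sample. Depth per sample is not in the lists, so precision could not be computed.

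Intervals (0 of them beyond a GRCm38 chromosome end) were read with Python (3.11.15) against GENCODE M21 and the GRCm38.p6 sequence. Distance to a TSS was taken from the peak edge. A peak covering several TSSs went to the one nearest its centre. Promoter class meant within 3 kb of a protein-coding TSS. Sequence bases in annotated UTRs are not printed. The 10 genes, gene lists and strings were chosen with earlier results of these data known. Named were all 10 genes with every peak, list genes with a peak and genes nearest to a peak. List genes without a peak that are named were chosen after their values were seen. The nearest-TSS and string searches were tested on simulated data. Alternatives covered the window, the assignment rule, score limits, the TSS set and mismatches.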

Additional observations from a re-analysis of the deposited data

How the results depend on the processing

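Of 46 values recomputed under an alternative, 45 stayed within 1.5 times the reported count. Little can be read from this tally, since several values are counts of 1 or 2. Peaks given to a gene by nearest TSS also stay under a smaller window. A fall from 6 to 4 genes with a gained peak near an own TSS was counted as within the limit. The number of the 10 genes with a gained peak lay between 6 (nearest protein-coding TSS alone, 31.1% of all protein-coding genes) and 8 (window of 20 kb, 43.2%), and it was 7 among peaks scoring at or above their list's median, where the share of all protein-coding genes was 24.7%. Genes with a lost peak numbered 1 under each alternative tried, and *Chd4* kept a count of 2 gained peaks under each. With a limit of 1 kb in place of 3 kb, 4 genes had a gained peak near an own TSS (9.23% of all protein-coding genes). The number of pairs of peak and string among the 14 peaks was 12 for exact matches and 24 with 1 mismatch allowed in strings of 7 or more letters, an alternative that by its construction finds more sites. A CTCF string, the own-TSS limit for promoter peaks and the values per 100 kb by nearest TSS were added after seeing the data. No paired analysis was possible because the files hold no value per sample, and for the same reason no sample could be left out. A common score limit for both lists assumes that they share a scale. The lists do not show depth, sites open in both genotypes or differences below the authors' limit.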
